A study of Mus musculus with 12 samples.

Results

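The choroid plexus is the secretory tissue of the brain ventricles. Its epithelium makes cerebrospinal fluid by moving ions and water from blood to ventricle, and it loads that fluid with carrier proteins, hormones and vitamins. Its cells are a small part of the brain, and several of their genes are hardly used elsewhere in the brain. The 9 genes described here cover these roles: the secreted carrier Ttr and the secreted antagonist Sostdc1, the receptors Kl, Folr1 and Prlr, the channels Aqp1, Kcnj13 and Clic6, and the transcription factor Otx2. They were taken by symbol from the 55450 genes of the deposited count table, and all 9 were found once. The list was drawn up with results of these same libraries in view, so the levels below are a description and the p-values are no independent evidence.

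The samples are total RNA of 2 tissues, brain and liver, taken from males at 7 to 9 weeks of age. The mice were wild type (Vaultrc5+/+, named flx in the sample titles) or knockout (Vaultrc5-/-) for the small non-coding vault RNA gene Vaultrc5, and each of the 4 combinations of tissue and genotype had 3 libraries. How the allele was made, the strain and how a brain was cut out are not given in the sources used here, nor is it said that each library came from its own animal, so p-values measure the spread between these libraries. The libraries held 14844971 to 18567381 expected counts in brain and 23247449 to 27155480 in liver. Levels are CPM, the count scaled to an effective library size that trimmed-mean (TMM) scaling gave within a tissue. A count of 3, taken as the floor, lies at 0.165 to 0.198 CPM in brain and 0.110 to 0.127 CPM in liver, and covers counting error only.

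The tissue labels were checked against marker lists. The summed level of 8 neuronal genes ran from 4607 to 6086 CPM in the brain libraries. Hepatocyte genes, 8 in all and Alb among them, summed to 0.606 to 2.66 CPM in brain and to at least 53271 CPM in every liver library. The brain libraries stood apart from each other on the choroid plexus genes: wild-type brains 1 and 3 and knockout brain 1 held them at levels that wild-type brain 2 and knockout brains 2 and 3 did not reach. Both genotypes therefore had libraries of either kind, and the knockout comparison in brain is given below with and without single libraries.

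Upstream sequence is shown for 3 of the 9 genes, so that their start sites can be compared. RefSeq promoter entries on GRCm38.p6 were matched for 5 of the 9 genes (Kcnj13, Kl, Aqp1, Otx2 and Prlr), and the 250 bases before a start site are printed for an apical potassium channel, for klotho and for the transcription factor. Each window overlaps no annotated exon. Capitals mark matches to the core letters of a TATA box, searched as TATAAA or its reverse complement TTTATA.
Kcnj13 (chr1:87394730-87394979, minus strand): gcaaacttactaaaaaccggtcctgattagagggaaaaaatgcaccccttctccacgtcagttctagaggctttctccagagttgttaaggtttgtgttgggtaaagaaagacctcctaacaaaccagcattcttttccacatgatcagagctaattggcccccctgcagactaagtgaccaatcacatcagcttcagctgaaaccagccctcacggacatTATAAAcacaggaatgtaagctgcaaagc
Kl (chr5:150952357-150952606, plus strand): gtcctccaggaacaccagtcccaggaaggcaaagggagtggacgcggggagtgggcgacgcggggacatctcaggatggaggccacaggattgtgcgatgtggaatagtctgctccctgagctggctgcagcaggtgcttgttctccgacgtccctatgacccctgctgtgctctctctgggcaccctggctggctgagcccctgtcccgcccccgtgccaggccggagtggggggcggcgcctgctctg
Otx2 (chr14:48667645-48667894, minus strand): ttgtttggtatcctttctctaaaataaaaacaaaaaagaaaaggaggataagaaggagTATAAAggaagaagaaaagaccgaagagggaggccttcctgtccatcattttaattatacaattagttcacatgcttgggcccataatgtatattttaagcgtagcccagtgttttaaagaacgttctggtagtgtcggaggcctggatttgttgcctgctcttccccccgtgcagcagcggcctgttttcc
The match of Kcnj13 begins at position -29 from its start site and that of Otx2 at position -192, while the Kl window has none. Of all 32851 windows of this length, 12.4% hold TATAAA on either strand. The core that OTX proteins bind, searched as TAATCC or its reverse complement GGATTA a set of letters that is not part of TATAAA, occurs in 6.25% of all windows. It was not found in the 3 windows printed. RefSeq gives Otx2 other start sites, and of their 3 windows, which overlap annotated exons and are not printed, 1 holds this core at position -211. None of those 3 windows holds TATAAA on either strand. The windows of Aqp1 and Prlr, which are not printed either, hold neither TATAAA nor the OTX core. These are matches of letters in these windows only.

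Among the secreted proteins, Ttr, the carrier of thyroxine and of retinol-binding protein and the best known product of this epithelium, had the widest range. In wild-type brains 1, 2 and 3 it was at 217, 0.275 and 415 CPM, and in knockout brains 1, 2 and 3 at 583, 2.60 and 3.51 CPM. The counts behind the lowest and highest values were 5 and 8856, a 2118-fold span. Wild-type brain 2 and knockout brains 2 and 3 were thus nearly without Ttr, and the genotypes overlapped. Fewer choroid plexus cells and less RNA per cell cannot be told apart in such bulk samples. Sostdc1, a secreted antagonist of BMP and Wnt signals, was at 1.84, 0.110 and 3.03 CPM in wild-type brains 1, 2 and 3 and at 4.81, 0.473 and 0.484 CPM in knockout brains 1, 2 and 3. Its 3 highest libraries were those of Ttr.

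**Figure D1:**
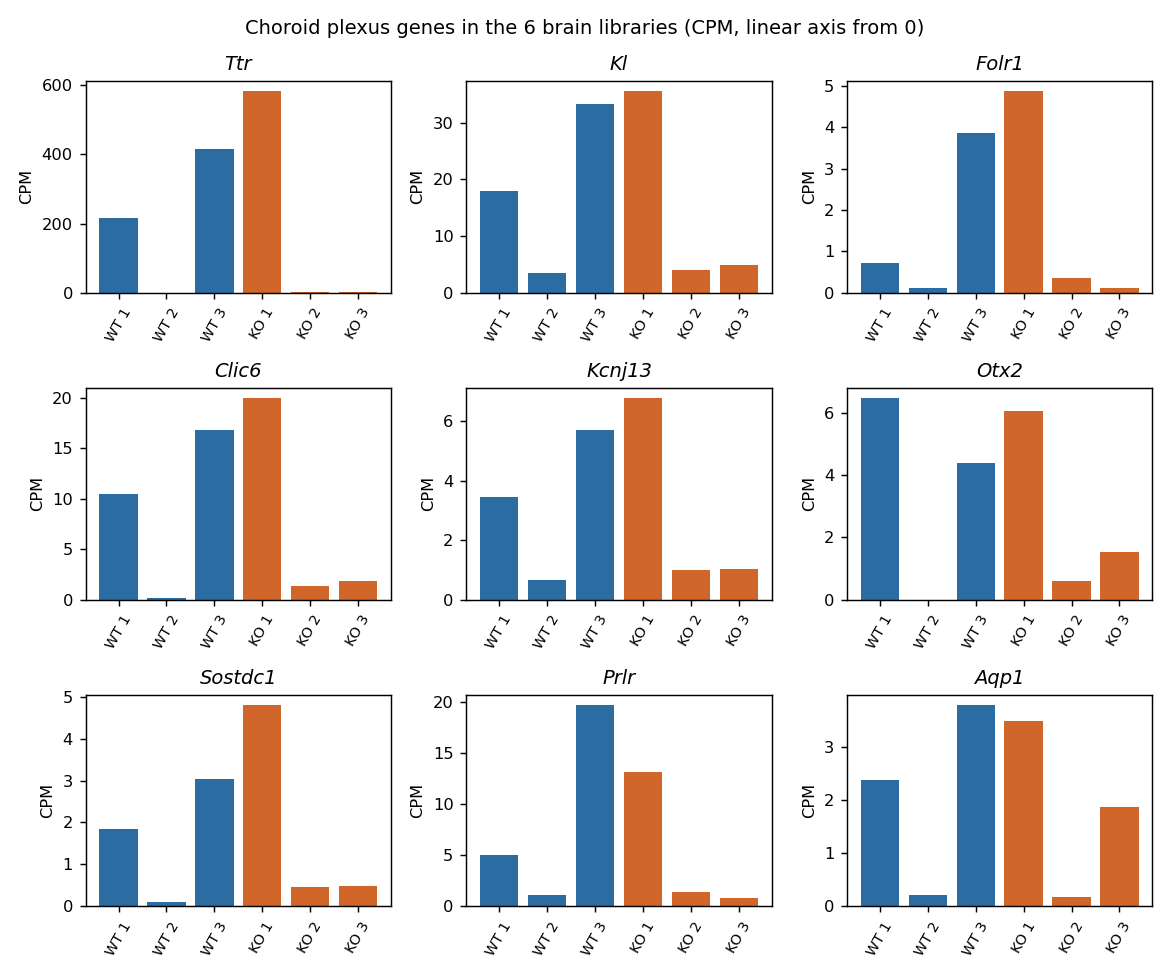
Level of each choroid plexus gene in the 6 brain libraries; the vertical axes are CPM on linear scales that start at 0 and differ between panels, the bars are single libraries, blue for wild type (WT) and orange for knockout (KO), with the replicate number below. In each panel the 3 tallest bars are WT 1, WT 3 and KO 1, and Ttr runs from 0.275 to 583 CPM.

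The receptors followed the same libraries with different residues. Kl encodes klotho, the co-receptor through which a phosphate-regulating fibroblast growth factor signals. It was at 17.98, 3.52 and 33.4 CPM in wild-type brains 1, 2 and 3 and at 35.6, 4.02 and 4.90 CPM in knockout brains 1, 2 and 3. Its lowest library still had 64 counts and kept 9.91% of the highest level, against 0.0472% for Ttr, so Kl was present in every brain library. Folr1, the folate receptor that carries folate into cerebrospinal fluid, was at 0.712, 0.110 and 3.85 CPM in wild-type brains and at 4.87, 0.354 and 0.121 CPM in knockout brains, in the order of their numbers. The level in wild-type brain 1 was nearer to the low libraries for Folr1 than for Ttr. Prlr, the prolactin receptor, was at 4.99, 1.10 and 19.7 CPM in wild-type brains and 13.1, 1.42 and 0.848 CPM in knockout brains. It was the only one of the 3 receptors that was highest in wild-type brain 3. The table gives 1 value per gene, so long and short Prlr forms were not told apart.

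Of the channels, Clic6, a member of the chloride intracellular channel family, was at 10.4, 0.165 and 16.9 CPM in wild-type brains 1, 2 and 3 and at 20.02, 1.30 and 1.82 CPM in knockout brains 1, 2 and 3. Kcnj13, an inward rectifier potassium channel of the apical membrane, was at 3.44, 0.661 and 5.72 CPM in wild-type brains and at 6.78, 1.00 and 1.03 CPM in knockout brains. Both channels had their highest level in knockout brain 1, as Ttr, Kl, Folr1 and Sostdc1 did. Aqp1, the water channel of the apical membrane, was at 2.37, 0.220 and 3.79 CPM in wild-type brains and at 3.49, 0.177 and 1.88 CPM in knockout brains. It departed from the other genes in knockout brain 3, where it had 31 counts and stood within 1.27 times the level of wild-type brain 1. Krt8 and Krt18, keratins of simple epithelia, had their highest brain level in that library, at 1.27 and 1.33 CPM, unlike most of the 30 other epithelium genes among which they are listed. The summed hepatocyte genes reached their highest brain level there as well, at 2.66 CPM, of which Cyp2e1 gave 1.94 CPM. Of the other hepatocyte genes, Hnf4a was also highest in knockout brain 3, at 0.121 CPM. Alb and Apoa1 were highest in wild-type brain 1 and Apoa2 in wild-type brain 3, and Serpina1c, Fgb and Tat had no count in knockout brain 3. Krt8, Krt18 and Cyp2e1 were picked after their values were seen, and their part in the Aqp1 value was not tested.

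Otx2 encodes a homeobox transcription factor that the choroid plexus epithelium needs and that other brain regions also use. It was at 6.47, 0 and 4.37 CPM in wild-type brains 1, 2 and 3 and at 6.06, 0.591 and 1.51 CPM in knockout brains 1, 2 and 3. Wild-type brain 2 had no Otx2 count, and against its floor of 3 counts the level in wild-type brain 1 was at least 39.2-fold higher. The highest Otx2 value was found in wild-type brain 1, where Ttr was lowest of the 3 high libraries. Otx2 exons overlap those of Otx2os1 on the other strand over 154 bases and those of Gm49154 on the same strand over 168 bases, and these 2 genes did not exceed 0.534 and 0.237 CPM in any brain library.

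In every one of the 9 genes the 3 highest brain libraries were wild-type 1, wild-type 3 and knockout 1. The same 3 libraries were highest for 2333 of the 18075 genes tested in brain, or 12.9%. With the further condition that the third highest library was at least 2 times the fourth, 49 genes remained, and 8 of the 9 choroid plexus genes were among them. Aqp1 was the exception, where the third highest level was 1.27 times the fourth. The spread within a group was accordingly wide: the median standard deviation of log2(CPM + 1) over the 9 genes was 1.504 in wild-type and 1.31 in knockout brain, beside 0.195 and 0.169 over all genes tested. These values chose the genes in part and are given as a description.

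The genes lie on 9 chromosomes of the GRCm38 build (GENCODE M21, 1-based). Ttr spans 20665280 to 20674321 of chromosome 18, Kl spans 150952607 to 150993817 of chromosome 5, and Folr1 spans 101858331 to 101870788 of chromosome 7. Clic6 lies on chromosome 16 at 92485736 to 92541243, Kcnj13 on chromosome 1 at 87386363 to 87394729, and Otx2 on chromosome 14 at 48657677 to 48673819. Sostdc1 is found on chromosome 12 at 36314139 to 36318452, Prlr on chromosome 15 at 10177238 to 10349180, and Aqp1 on chromosome 6 at 55336432 to 55348555. All 9 are protein coding. Counts of 8 of the genes were whole in all 12 libraries, and those of Prlr were fractional in 5. Exons of Kcnj13 overlap those of Gigyf2 on the other strand over 623 bases, and whether the counting used strand is not given in the sources used here. Gigyf2 was at 106 to 122 CPM in brain and 56.4 to 62.8 CPM in liver, and in those same liver libraries Kcnj13 had no count.

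Levels per kilobase of annotated exon allow the genes to be ordered. In knockout brain 1 Ttr was at 492 CPM per kb, followed by Kcnj13 at 5.34, Clic6 at 5.11, Kl at 3.81 and Sostdc1 at 2.70 CPM per kb. The order of the first 4 was the same in wild-type brain 3 and in wild-type brain 1, where Ttr was at 350 and 183 CPM per kb. Kcnj13 and Clic6 differed by less than the spread between libraries in each group. In wild-type brain 2 the order was another one, with Kcnj13 at 0.520 and Kl at 0.378 CPM per kb above Ttr at 0.232 CPM per kb. Ttr made up 81.8%, 82.1% and 86.0% of the summed CPM of the 9 genes in wild-type brains 1 and 3 and knockout brain 1. Its part was 4.46%, 21.8% and 21.8% in wild-type brain 2 and knockout brains 2 and 3. For each 100 CPM of Ttr, Kl was at 8.29, 8.04 and 6.10 CPM in wild-type brains 1 and 3 and knockout brain 1, and at 1280, 155 and 140 CPM in wild-type brain 2 and knockout brains 2 and 3. These ratios are not scaled by length. Per kb, Ttr stayed above Kl in knockout brains 2 and 3, at 2.19 and 2.96 against 0.431 and 0.526 CPM per kb, and Kl was above Ttr in wild-type brain 2 alone.

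Other genes of the choroid plexus epithelium followed the same libraries. Of 30 such genes, 25 passed the low-count filter, the same 3 libraries were highest for 20 of them, and in 9 the third highest library was at least 2 times the fourth. The 4 most abundant per kb were Enpp2, which makes lysophosphatidic acid, Igfbp2, which binds insulin-like growth factors, the cation channel Trpm3 and the copper transporter Slc31a1. Enpp2 was at 293, 171 and 504 CPM in wild-type brains 1, 2 and 3 and at 541, 193 and 134 CPM in knockout brains 1, 2 and 3. Trpm3 was at 341, 91.6 and 254 CPM and at 361, 105 and 181 CPM in the same order. Both are also made by other brain cells, and their lowest libraries kept far more than those of Ttr. Igfbp2 ran from 12.0 to 27 CPM and did not have the same 3 libraries highest, and Slc31a1 ran from 14.9 to 23.8 CPM and did. Among genes near to absent in some libraries were the membrane protein gene Mfrp, at 4.45, 0 and 6.59 CPM in wild-type brains and 9.22, 0.295 and 0 CPM in knockout brains, and Lmx1a, a transcription factor of the roof plate, which was not above 0.0591 CPM in wild-type brain 2 and knockout brains 2 and 3 and was at 0.758 to 1.19 CPM in the other 3. Mfrp and Lmx1a were picked from the list after their values were seen.

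The ion transport genes of the tissue did not all have the same 3 libraries highest. All 14 passed the filter, and the same 3 libraries were highest for 6. The sodium pump subunit Atp1b1, at 988 to 1242 CPM, the bicarbonate transporter Slc4a10, at 225 to 296 CPM, and the carbonic anhydrase Car2, at 70.2 to 148 CPM, are used by neurons or glia too and did not have those 3 libraries highest. Slc4a5, the sodium bicarbonate cotransporter of the epithelium, was at 5.10, 0 and 6.53 CPM in wild-type brains 1, 2 and 3 and at 9.22, 0.354 and 0.242 CPM in knockout brains 1, 2 and 3. Kcne2, a potassium channel subunit, was at 2.02, 0.110 and 3.91 CPM and at 6.06, 0 and 0 CPM. Slc4a5 and Kcne2 were likewise picked after their values were seen. Partners of the 9 genes, 18 in all, were read beside them: 15 were tested and the same 3 libraries were highest for 5, with no gap of 2 times in any, where the share over all genes was 12.9%. Aqp4, the water channel of astrocytes and the most abundant of them per kb, was at 224, 96.6 and 229 CPM in wild-type brains 1, 2 and 3 and at 174, 93.7 and 132 CPM in knockout brains 1, 2 and 3. The BMP receptor Bmpr1a was at 61.2 to 74.4 CPM, the kinase Jak2 at 44.0 to 54.6 CPM and the Wnt co-receptor Lrp6 at 98.9 to 114 CPM.

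Marker lists of neighbouring cell types were read in the same libraries. The 9 genes together ran from 6.17 CPM in wild-type brain 2 to 678 CPM in knockout brain 1, a 109.9-fold span. Ependymal genes, 15 in all, summed to 10.4 to 28.9 CPM and were highest in wild-type brain 3, and the same 3 libraries were highest for 2 of the 8 tested. Foxj1, the switch of motile cilia and the most abundant of them, was at 4.21, 3.08 and 11.1 CPM in wild-type brains and 5.14, 6.08 and 3.81 CPM in knockout brains. Meningeal and stromal genes summed to 129 to 202 CPM and endothelial genes to 206 to 224 CPM, and in each of these lists the same 3 libraries were highest for 1 gene. Astrocyte genes summed to 4225 to 5666 CPM, and the sum was highest in wild-type brain 2, where Slc1a2 gave 4962 CPM of it. The other astrocyte genes were highest elsewhere: Gfap, Aqp4, Aldh1l1 and Gja1 in wild-type brain 3 and Slc1a3 in wild-type brain 1. Oligodendrocyte genes summed to 2125 to 7330 CPM and were highest in wild-type brain 3. The 5 blood genes summed to 7.45 to 16.4 CPM in brain. Bile duct genes, 6 in all, summed to 47.5 to 70.8 CPM in brain, mostly Sox9, which glia also make.

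The list of 12 pineal and pituitary genes moved with part of this pattern. It summed to 11.3, 1.38 and 5.54 CPM in wild-type brains 1, 2 and 3 and to 12.4, 7.91 and 2.24 CPM in knockout brains 1, 2 and 3. Gh, the pituitary growth hormone gene, was at 7.78, 0 and 1.87 CPM in wild-type brains and 8.03, 0.118 and 0 CPM in knockout brains, highest in the libraries that were high for Ttr. Prl, the pituitary prolactin gene, was at 1.31, 0 and 0.233 CPM and at 1.58, 0 and 0 CPM. In knockout brain 2 the sum came instead from the pineal genes Tph1, at 4.96 CPM, and Crx, at 1.65 CPM and picked after its value was seen, where Ttr was at 2.60 CPM. The part of attached pituitary or pineal tissue in the choroid plexus values was not tested.

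**Figure D2:**
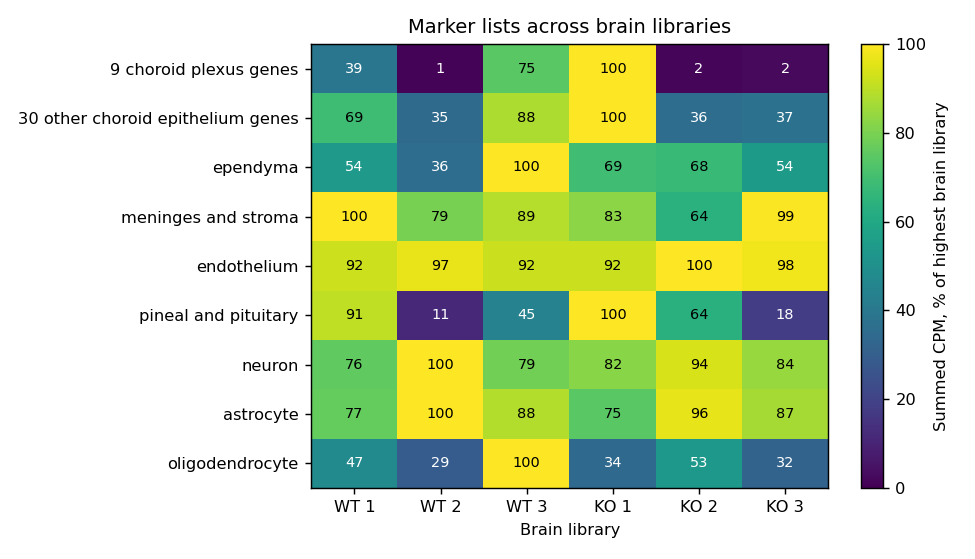
Summed CPM of 9 marker lists in the 6 brain libraries (columns, WT wild type and KO knockout with replicate number), printed in each cell and coloured as a percentage of the highest brain library of that list. The 9 choroid plexus genes fall to between 0.910% and 2.38% in WT 2, KO 2 and KO 3, while endothelial genes stay at 91.8% or more.

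By a measure of likeness, the Pearson correlation over the 6 brain libraries between log2(CPM + 1) of a gene and the mean standardized level of the 9 genes, the closest other genes were 9430037G07Rik, Mrps16, Tmed4, Etfa, Atpaf2, Rdh5, Slc12a4, Ttpa, Mkrn3 and Drc7, with r of 0.991 to 0.999. It is a description over 6 points from the same libraries, and r takes no account of size. Mrps16 ran only from 8.31 to 10.5 CPM and Tmed4 from 32.8 to 40.5 CPM. Rdh5, a retinol dehydrogenase in the list of other epithelium genes, ran from 1.32 to 5.66 CPM, and Drc7, a gene of motile cilia, from 0.385 to 3.88 CPM. With 0.1 in place of 1 as the pseudocount, 7 of the 10 genes were named again.

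To ask whether loss of Vaultrc5 altered these genes in brain, the genotypes were compared with the edgeR quasi-likelihood test over all genes. None of the 9 genes was called, and 0.00% of the 18075 genes tested were (0 genes at an adjusted p under 0.05, 0 by the DESeq2 Wald test, and 0.675% with an unadjusted p under 0.05). The mean Ttr level in brain was 211 ± 207 CPM for the wild type against 196 ± 335 CPM for the knockout (SD, n = 3). Its log2 fold change was -0.10 ± 2.22 (SE), and the edgeR adjusted p was 1.00, as for each of the other 8 genes. Kl was at 18.3 ± 14.9 and 14.8 ± 17.96 CPM, with a log2 fold change of -0.30 ± 1.03 (SE). The largest estimate was that of Prlr, at 8.60 ± 9.82 and 5.12 ± 6.92 CPM, with a log2 fold change of -0.75 ± 1.25 (SE). For Aqp1 it was -0.20 ± 1.07, for Clic6 -0.25 ± 1.39, for Kcnj13 -0.16 ± 0.95 and for Otx2 -0.41 ± 1.28 (SE). Those of Folr1 and Sostdc1 were above 0, at 0.18 ± 1.42 and 0.20 ± 1.18 (SE). The median over the 9 genes was -0.20, beside -0.01 over all genes tested, and every SE was larger than its estimate.

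Single libraries set the sign of these estimates. The Ttr log2 fold change was -6.09 without knockout brain 1, 0.85 without wild-type brain 3, and 1.44 without both libraries numbered 3. For Kl the lowest value was -2.03 without the libraries numbered 1 and the highest 0.89 without those numbered 3. Each of the 9 genes changed sign in at least 2 of the fits that left out a library or a number, and none was called in any of them. At this spread no knockout effect on choroid plexus genes was detected in brain, and how large an effect could have been detected was not tested. Of the other choroid plexus epithelium genes 0 of 25 were called, of the ion transport genes 0 of 14, and of the partners 0 of 15, with median log2 fold changes of -0.12, -0.12 and -0.01. None of the tested ependymal (8), stromal (13), endothelial (10) or pineal and pituitary (3) genes was called, nor any of the tested neuronal, astrocyte, oligodendrocyte, blood or bile duct genes.

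**Figure D3:**
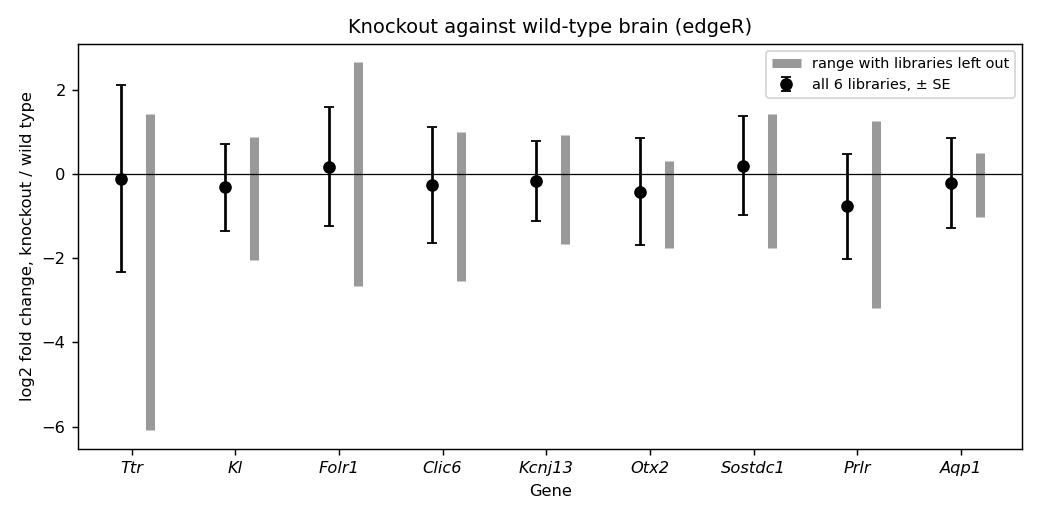
Log2 fold change of knockout against wild-type brain for each choroid plexus gene; black points are the fit to all 6 libraries with SE bars, and grey bars span the fits that left out single libraries or both libraries of a number. The grey bar of Ttr runs from -6.09 to 1.44, and all 9 grey bars cross 0.

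In liver the same list split by gene. Ttr, which hepatocytes secrete into plasma, was at 3764, 2800 and 3339 CPM in wild-type livers 1, 2 and 3 and at 2918, 2033 and 3421 CPM in knockout livers 1, 2 and 3. Prlr, through which prolactin acts on hepatocytes, was at 105, 103 and 157 CPM and at 93.2, 74.7 and 116 CPM. Aqp1 was at 56.8, 58.8 and 62.8 CPM and at 77.7, 59.5 and 56.5 CPM. For each of these 3 genes the genotypes overlapped. Kcnj13, Otx2 and Sostdc1 had no count in any liver library, which allows up to 3 counts in each. Kl had 0 to 3 counts and Folr1 0 to 3 in each library, at the floor. Clic6 had 0, 0 and 7 counts in wild-type livers 1, 2 and 3 and 32, 5 and 3 in knockout livers 1, 2 and 3, so that 1 library held most of them.

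Only Ttr, Prlr and Aqp1 passed the liver filter. None was called between genotypes, as was 0.00% of the 15329 genes tested (0 genes by edgeR, 3.50% with an unadjusted p under 0.05, and 10 genes by the DESeq2 Wald test, none of the 9). The mean Ttr level in liver was 3301 ± 483 CPM for the wild type against 2791 ± 703 CPM for the knockout (SD, n = 3). Its log2 fold change was -0.24 ± 0.22 (SE), and the edgeR adjusted p of all 3 genes was 0.992. Without knockout liver 2, which had the lowest Ttr, the value was -0.059, and without knockout liver 3 it was -0.42. Prlr was at 122 ± 30.5 and 94.7 ± 20.9 CPM, giving -0.36 ± 0.22 (SE) on the log2 scale. Its value was -0.14 without wild-type liver 3 and -0.54 without knockout liver 3. Aqp1 was at 59.5 ± 3.05 and 64.6 ± 11.5 CPM, giving 0.12 ± 0.13 (SE) on the log2 scale, and -0.067 without the libraries numbered 1. Knockout liver 2 also had the lowest summed hepatocyte genes, 53271 CPM, and the highest summed bile duct genes, 117 CPM beside 25.5 to 40.0 CPM in the other 5 livers. Spp1, which other cells also make, gave 102.4 CPM of that sum, and Krt19, Krt7 and Epcam were higher in knockout liver 1 than there. Alb gave 30338 CPM of the hepatocyte sum in knockout liver 2, and Apoa2, Serpina1c and Cyp2e1 were also lowest there. Apoa1, Tat and Hnf4a were not lowest in that library, and Fgb was at its highest, 6736 CPM. The part of these lists in the low Ttr and Prlr values was not tested. With the replicate number as a block, which paired the liver libraries, 2 genes or 0.0130% were called and none of the 3. Prlr was lower in the knockout library of each of the 3 pairs, with a blocked value of -0.36 ± 0.09 on the log2 scale (SE, edgeR adjusted p = 0.711).

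The 3 genes tested in both tissues were also tested for an interaction of genotype and tissue over all 12 libraries, where 0.00% of 20141 genes were called by edgeR (2.43% with an unadjusted p under 0.05, and 1 gene by the DESeq2 Wald test). The difference, liver minus brain, was -0.17 ± 2.54 for Ttr, 0.37 ± 1.30 for Prlr and 0.31 ± 0.95 for Aqp1 on the log2 scale (SE), each with an edgeR adjusted p of 1.00. With the replicate block in both tissues 0.00993% were called, none of them among the 3, although the numbers were not taken to pair the brain libraries.

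The tissues were then set side by side in the wild type and, in other libraries, in the knockout. On CPM scaled within each tissue, Ttr in the lowest wild-type liver was 6.75 times that in the highest wild-type brain, and in the knockout the same ratio was 3.49. The tests below scale both tissues together. The edgeR log2 fold change of brain over liver was -4.83 ± 1.63 (SE, adjusted p = 0.0282) in the wild type and -4.67 ± 2.06 (SE, adjusted p = 0.0769) in the knockout. No liver library overlapped a brain library. With libraries left out, the wild-type value stayed between -5.86 and -4.30, while its side of the threshold moved. The wild-type adjusted p of edgeR was 2.55e-05 without wild-type brain 2, 0.0895 without wild-type brain 1, 0.0616 without wild-type liver 1, 0.144 without both libraries numbered 1 and 0.0733 without those numbered 3. Leaving out knockout brain 1 moved the knockout value to -10.66, which was called (adjusted p = 5.46e-06). With the replicate number as a block, which no label says pairs the tissues, the knockout value was -8.81 and was called (edgeR adjusted p = 0.0147). The log2 fold change of Prlr was -4.69 ± 0.85 in the wild type (SE, edgeR adjusted p = 0.00125) and -5.07 ± 0.95 in the knockout (adjusted p = 0.00201). Aqp1 had log2 fold changes of -5.67 ± 0.62 (edgeR adjusted p = 7.31e-05) and -6.00 ± 0.65 (adjusted p = 8.65e-05). With libraries left out, Prlr ran from -6.24 to -4.22 in the wild type and from -7.23 to -4.40 in the knockout, and Aqp1 from -6.44 to -5.19 and from -6.80 to -5.47. Ttr in the wild type and Aqp1 in both genotypes passed the filter only through the liver libraries, where they are high, so their tests between tissues are given as a description. As a background, 78.6% of the 18850 genes tested in the wild type and 78.7% of the 18785 tested in the knockout were called. With library totals in place of TMM the median over all genes shifted on the log2 scale from 0.21 to 1.05 in the wild type and from 0.21 to 1.08 in the knockout, and Ttr, Prlr and Aqp1 kept their directions.

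The other genes were at or near the floor in liver, apart from Clic6. Otx2, Kcnj13 and Sostdc1, with no liver count, had mean levels of 3.61, 3.27 and 1.66 CPM in wild-type brain and 2.72, 2.94 and 1.92 CPM in knockout brain. Kl had 5 counts in all over the 3 wild-type livers and 2 over the 3 knockout livers. Kl and Kcnj13, and in the knockout also Otx2 and Clic6, passed the filter only through the brain libraries, so their tests between tissues are not given. Folr1, Clic6, Otx2 and Sostdc1 did not pass the filter in the wild type, where wild-type brain 2 held 3 counts or fewer of each, nor did Folr1 and Sostdc1 in the knockout.

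**Figure D4:**
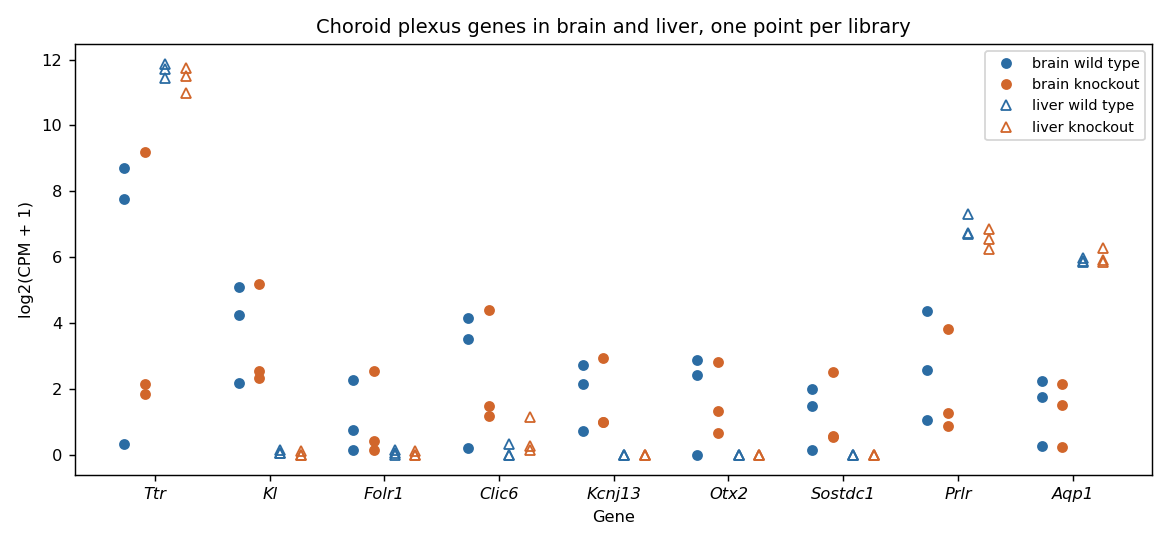
Level of each choroid plexus gene in all 12 libraries as log2(CPM + 1); filled circles are brain, open triangles liver, blue wild type and orange knockout, 1 point per library. Ttr, Prlr and Aqp1 lie higher in every liver library than in any brain library, while Kcnj13, Otx2 and Sostdc1 lie at 0 in all liver libraries.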

How the data were processed

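Reads were processed by the authors. The submitters' processing notes name cutadapt, STAR and the mm10 build; the counter, and whether it used strand, are not given in the sources used here. The values the authors deposited are expected counts for each gene, neither normalized nor pooled. Between 5.06% and 5.71% of a library's values were fractional, and all were rounded before the tests. All 55450 gene identifiers matched GENCODE M21.

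Genes kept by filterByExpr (minimum count 10, minimum total 15) were tested with the edgeR 4.0.16 quasi-likelihood test (R 4.3.3, robust, TMM) and Benjamini-Hochberg adjustment over all genes tested, at 0.05; DESeq2 1.42.0 was an alternative. SE is the absolute log2 fold change over the square root of F. The fits were tested on simulated counts. Replicate pairs differed by 27.2 to 228 times the degrees of freedom in a chi-square over genes with at least 20 counts, so each library was kept.

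Same-numbered wild-type and knockout libraries deviated together in liver, with correlations of 0.33, 0.36 and 0.40. This is where the pairing comes from, since no label states it. In brain those numbered 1 and 2 did (0.65 and 0.62) and those numbered 3 did not (-0.02), so the numbers were not taken to pair the brain libraries.

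The 9 genes and the marker lists were chosen with earlier results of these data known. The rule for naming took all 9 genes, from each other list the 4 genes most abundant per kb in brain (not all are printed here), any list gene called between genotypes (there was none), and the 10 genes most like the 9; others are said to be picked after their values were seen.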

Additional observations from a re-analysis of the deposited data

How the results depend on the processing

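In brain 0 genes were called, and none of the 9, under every alternative run (DESeq2 size factors, library totals, no filter beyond 1 count, a mean of at least 1 CPM, the DESeq2 Wald test, robust estimation off, the replicate block, one fit over all 12 libraries, and libraries left out). With the replicate block in brain, where numbers did not pair every library, the Ttr log2 fold change was -0.91. With libraries left out, the brain log2 fold changes ran from -6.09 to 1.44 for Ttr, -2.03 to 0.89 for Kl, -2.66 to 2.66 for Folr1, -2.53 to 1.01 for Clic6, -1.66 to 0.93 for Kcnj13, -1.76 to 0.32 for Otx2, -1.76 to 1.44 for Sostdc1, -3.18 to 1.26 for Prlr and -1.03 to 0.52 for Aqp1; the values follow from which of the high and low libraries remained. In liver the count of 0 called genes became 4 without a filter, 10 with the DESeq2 Wald test and 2 with the replicate block, and ran from 0 to 1 with libraries left out, never with one of the 9; Aqp1 ran from -0.067 to 0.25. The interaction count became 1 with the DESeq2 Wald test and 2 with the replicate block, under which the Ttr difference turned to 0.23; with libraries left out it ran from -1.84 to 5.85 for Ttr, -1.56 to 2.68 for Prlr and -0.39 to 1.12 for Aqp1. Between wild-type tissues the 5 of the 9 genes that were tested were called (78.6% of all genes were), and 4 to 9 with libraries left out, 9 without wild-type brain 2 or both libraries numbered 2; Kl and Kcnj13 passed the filter only through brain and Ttr and Aqp1 only through liver, where they are high, so these counts support nothing, and the cause was not tested. The wild-type Ttr call was lost without a filter (log2 fold change -4.81, edgeR adjusted p = 0.130). It was also lost in one fit over all 12 libraries (-4.84, edgeR adjusted p = 0.0551). Both sizes were near that of -4.83, and the cause was not tested. The knockout Ttr call was gained with the replicate block (edgeR adjusted p = 0.0147) and the DESeq2 Wald test (adjusted p = 0.0143). With the block the knockout Ttr log2 fold change moved from -4.67 to -8.81. With 0 to 14 counts in their lowest brain library, 8 of the 9 genes (Kl is the exception, with 64) are limited there by depth, and the 2118-fold span of Ttr rests on 5 counts.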

Other observations

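Genes outside every list that followed the same 3 brain libraries were looked at after their values were seen. Of the 49 genes for which wild-type brains 1 and 3 and knockout brain 1 were highest with a gap of at least 2 times, 8 were among the 9 choroid plexus genes, 9 among the other choroid epithelium genes, 3 among the ion transport genes and 1 among the pituitary genes, and 28 were in no list. Slc6a5, the glycine transporter of glycinergic neurons, which lie mostly in brainstem and spinal cord, was at 18.7, 0 and 134 CPM in wild-type brains 1, 2 and 3 and at 12.4, 0.118 and 5.02 CPM in knockout brains 1, 2 and 3. Pax2, a transcription factor of hindbrain neurons among others, was at 6.94, 0.110 and 8.51 CPM and at 4.21, 0.0591 and 1.94 CPM. Tlx3, a homeobox gene of hindbrain and spinal neurons, was at 1.31, 0 and 1.17 CPM and at 1.84, 0 and 0.363 CPM. Mab21l2 was at 2.31, 0.0551 and 10.5 CPM and at 1.84, 0.177 and 0 CPM. The motile cilia genes Dnah6 and Drc7 were at 1.65 to 11.4 CPM and 0.385 to 3.88 CPM. Of the 8 ependymal genes tested, by contrast, 2 had the same 3 libraries highest and none had a gap of 2 times. The order among the high libraries differed: knockout brain 1 was highest for Ttr and wild-type brain 3 for Slc6a5, and knockout brain 3 held more Slc6a5 and Pax2 than the other low libraries at a Ttr level of 3.51 CPM. The part of dissection in these values was not tested.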
